A study of Mus musculus with 83 samples.

Results

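Small RNA of mouse primordial germ cells (PGCs, the embryonic precursors of eggs and sperm) was compared with that of cultured embryonic stem cells (ESCs). The 4 PGC libraries, 1 for each sex at embryonic stages E13.5 and E14.5, were set against 15 control ESC libraries, 3 on each of days 1, 3, 6, 9 and 11, together 19 of the 83 libraries of the series. Members were taken from the sample titles, and libraries whose titles end in R1 were left out. By the description in the methods, the germ cells came from timed matings within C57BL/6J and were sorted by fluorescence as GFP-positive cells of an Oct4-GFP transgene that is active in the developing gonad, and no deletion of Dnmt1 is described for them. The labels list them as background strain C57BL/6 with no genotype, and their cell type tag reads ESC, which was not used. The control ESCs are labelled E14 and belong to a time course in which the maintenance methyltransferase gene Dnmt1 is deleted through Cre recombinase, so that they serve as the cells that kept the gene. The methods describe a line of strain C57BL/6 with loxP-flanked Dnmt1, kept in serum and LIF either on or off feeder cells, in which tamoxifen turns the Cre on. Which control libraries came from feeder cultures and whether the controls received tamoxifen are not given in the sources used here, nor is the number of embryos per PGC library. Tissue of origin, culture, strain label and library preparation all change together between the groups and cannot be told apart. Because the libraries are bulk samples, fewer cells of a type and less RNA per cell cannot be told apart either. No source says that replicates of an ESC day came from separate cultures, so the p-values measure the spread between these libraries, which may be technical.

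MicroRNAs (miRNAs) are RNAs of about 22 bases that DROSHA and DICER cut from hairpin precursors and that guide Argonaute proteins to messenger RNAs, mostly through the seed, bases 2 to 8 from the 5′ end. Mouse ESCs are known for the Mir290 to Mir295 cluster, the miR-302 cluster and relatives with similar seeds, which favour rapid cycling and the pluripotent state. Germ cells of the fetal testis and ovary have erased most DNA methylation, and the male cells later express a fast-evolving group of X-linked miRNAs known from testis.

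The PGC libraries held 1734576 to 3435993 reads of 20 to 24 nt and the ESC libraries 870481 to 5668458. Levels are given as RPM (reads per 1000000 reads) divided by a TMM scaling factor (trimmed mean of M values, which centres the bulk of features between libraries), called scaled RPM below. Values of the PGC libraries are given in the order of the libraries labelled E13.5 F, E13.5 M, E14.5 F and E14.5 M, and ESC values as the lowest, the median and the highest of the 15 libraries. Fragments of long RNAs offered a check of the labels. Stra8, which starts meiosis in fetal female germ cells, had 43.7, 0, 0.51 and 0 scaled RPM, and Nanos2, a regulator of male germ cells, had 0, 2.59, 8.92 and 8.05. The Y-linked genes Ddx3y, Eif2s3y, Kdm5d and Uty together had 0, 33, 30 and 26 reads. Xist, a marker of female cells, had 26, 13, 1 and 0 reads. The library labelled E13.5 M thus held both Y-linked and Xist reads, for a reason that was not tested. By these genes the library labelled E14.5 F went against its label, and it stood close to the library labelled E14.5 M. Over miRNA features their counts differed with a chi-square of 1.35 per degree of freedom, against 96.7 to 481 for the other PGC pairs and 7.18 to 49.1 for ESC replicates of a day. This was more than sampling noise, but it does not show that they are separate samples, which was not tested. Both were kept, and if they are not separate the p-values below are too small. With the E14.5 libraries averaged into 1 value, an alternative chosen after seeing the data, 946 features were called higher and 866 lower. Overlap with the ESC libraries was still judged there on the 4 separate PGC libraries. The counts of consistent calls below could therefore hardly change, and they came out the same. No comparison between the sexes was drawn.

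Of 32101 features, 2570 reached 10 RPM in at least 4 of the 19 libraries and were tested (limma, log2(scaled RPM + 1), Benjamini-Hochberg adjustment over all 2570). At an adjusted p under 0.05, 991 features (38.6%) were higher in PGCs and 900 (35%) were lower. A call is termed consistent here where, in addition, every PGC library lay above, or every one below, all 15 ESC libraries. This held for 534 features that were higher (20.8%) and 471 that were lower (18.3%). The median log2 difference of all features tested was 0.08. Scaling by library totals alone moved that median to 0.56 and the share of higher calls among all calls from 52.4% to 69.5%, with 845 consistent calls higher and 299 lower. The miRNA features went mostly the other way: of 279 tested, 56 were called higher and 188 lower, with 42 and 128 consistent calls and a median of -1.26. Scaling over miRNA features alone centred them near 0, called 113 higher and 126 lower, and gave the opposite call to 26 of the 244 miRNA features called. A difference below therefore describes a miRNA relative to all small RNA features. Where the scaling over miRNAs alone turns the sign of a miRNA named with its difference, this is stated. Members that are only counted can turn as well. Counts of family members called lower are to be read beside the 188 of 279 miRNAs called lower.

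**Figure D1:**
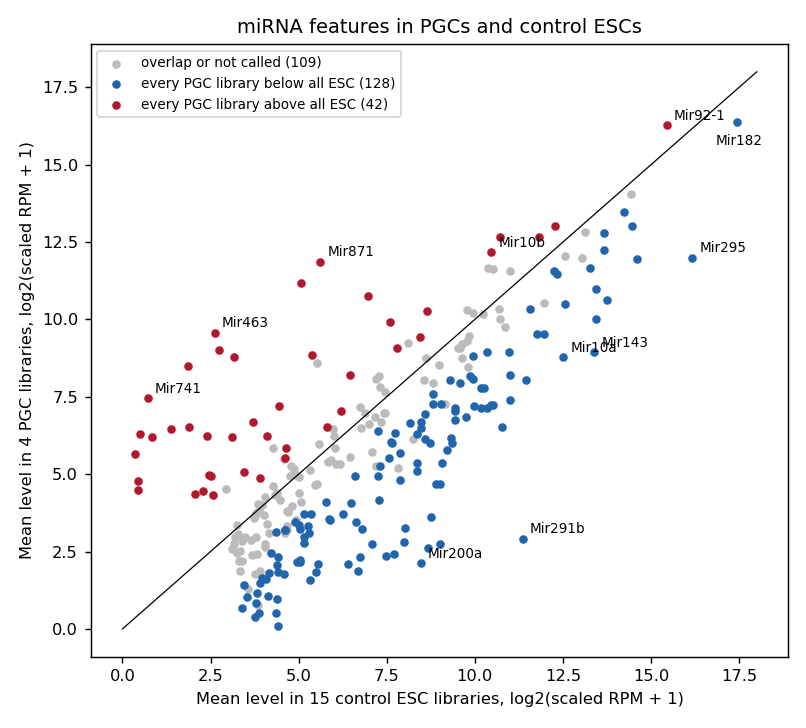
Mean level of each of the 279 miRNA features tested, in the 15 control ESC libraries (horizontal axis) and the 4 PGC libraries (vertical axis), both as log2(scaled RPM + 1), with the line of equal levels. The 42 features higher in every PGC library (red) include Mir871, Mir463 and Mir741 far above the line, and the 128 lower in every PGC library (blue) include Mir291b, Mir200a and Mir295 far below it.

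The sequences that carry the findings are those of the X-linked testis miRNAs, which were far higher in PGC libraries, and those of the miR-290, miR-302, miR-92 and miR-200 groups, whose members share seeds. They are mature mouse miRNAs of RefSeq (GRCm38.p6), written 5′ to 3′ with the seed in capitals. Of 73 miRNA features looked up, 69 had a mature sequence there. Reads were counted per hairpin, so the values do not separate the 5p and 3p arms, and 1 arm is shown.
miR-463-3p: uGAUAGACaccauauaagguag
miR-741-3p: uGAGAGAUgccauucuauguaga
miR-743a-3p: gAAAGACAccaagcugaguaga
miR-743b-3p: gAAAGACAucaugcugaauaga
miR-878-3p: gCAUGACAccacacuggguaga
miR-871-3p: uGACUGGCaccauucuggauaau
miR-881-3p: aACUGUGUcuuuucugaauaga
miR-470-5p: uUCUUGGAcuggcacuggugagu
miR-465a-3p: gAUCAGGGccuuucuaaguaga
miR-291a-3p: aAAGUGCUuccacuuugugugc
miR-291b-3p: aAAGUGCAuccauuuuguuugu
miR-294-3p: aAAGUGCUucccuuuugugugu
miR-295-3p: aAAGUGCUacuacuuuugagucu
miR-302b-3p: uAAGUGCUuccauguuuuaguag
miR-302d-3p: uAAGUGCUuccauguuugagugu
miR-17-5p: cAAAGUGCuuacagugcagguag
miR-20b-5p: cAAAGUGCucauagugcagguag
miR-92a-3p: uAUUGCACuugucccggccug
miR-363-3p: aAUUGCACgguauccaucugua
miR-367-3p: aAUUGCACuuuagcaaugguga
miR-25-3p: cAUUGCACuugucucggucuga
miR-200a-3p: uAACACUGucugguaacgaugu
miR-141-3p: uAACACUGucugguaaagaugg
miR-200b-3p: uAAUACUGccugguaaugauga
miR-429-3p: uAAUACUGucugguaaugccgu
Most miRNAs of the X-linked group have a seed of their own, with miR-743a and miR-743b as a pair of the same seed. The sequences of miR-291a-3p, miR-294-3p, miR-295-3p, miR-302b-3p and miR-302d-3p, all hold the seed AAGUGCU, although they come from hairpins on chromosomes 7 and 3. The seed AUUGCAC joins miR-92a, miR-363, miR-367 and miR-25, whose hairpins did not all move the same way.

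MiRNAs of the X-linked testis cluster that could be tested rose in PGCs. These hairpins lie within 62369 bases of the X chromosome (NCBIM37, chrX:64029932-64092300), and their miRNAs are known from the testis. Of 19 listed members 18 were in the table, 12 passed the filter on low levels, and all 12 of these were called higher with a consistent call, with a median log2 difference of 5.85 (range 4.03 to 7.03) beside 0.08 for all features tested. Mir871 and Mir470 would have passed the filter through the ESC libraries alone, while the other 10 passed only with the PGC libraries in which they are high, so the count and the median describe the members that passed and carry no weight beyond that. Their summed level was 9745, 4875, 9572 and 10072 scaled RPM in the PGC libraries, against 77.1, 104 and 164 in ESCs, an 80.5-fold ratio of the means. As a share of all reads this was 1.69, 0.631, 1.09 and 1.23%, against 0.0068 to 0.0158% in control ESCs. The ESC libraries of day 11 after Dnmt1 deletion, which were not part of the fit, lay between the groups at 0.136 to 0.187%.

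The members differed in level more than in the size of their difference. Mir871 (chrX:64063603-64063679, minus strand, outside other genes) had 4575, 1904, 4061 and 4338 scaled RPM against 32.9, 44.6 and 79.5 in ESCs, a log2 difference of 6.23 ± 0.17 (SE, adjusted p = 9.56e-17 in limma). Mir470 (chrX:64067126-64067200) had 1952, 1337, 2934 and 3089 against 22.1, 33.9 and 46.7 (6.05 ± 0.18). The gap between groups was many times the spread within either of them. Mir463 (chrX:64052398-64052472) had 937, 546, 759 and 802 scaled RPM against 2.42, 4.39 and 10.6, which gave the largest difference of the group at 7.03 ± 0.16. Mir741 had 191, 93.1, 207 and 210 against 0, 0.50 and 2.18 (6.75 ± 0.26), and Mir743b had 571, 235, 326 and 321 against 0.50, 2.81 and 6.11 (6.72 ± 0.31). Mir878 (6.31 ± 0.23) and Mir881 (5.65 ± 0.22) followed. In each of these the library labelled E13.5 M was the lowest of the PGC libraries, and still above every ESC library. Mir743, which shares its seed with Mir743b, had no more than 3 reads in any ESC library and was at least 38.7-fold higher in PGCs (against a floor of 3 reads per library). The lowest of the 12 was Mir471, with 34.4, 12.5, 19.1 and 20.8 scaled RPM against 0, 0.27 and 1.68 (4.03 ± 0.26). Mir880 and Mir742 did not pass the filter, with 110 and 41 reads over the PGC libraries and 16 and 3 over the ESC libraries. The copies Mir465b-1, Mir465b-2, Mir465c-1 and Mir465c-2 had no read in any library. Of these, Mir465b-1, Mir465b-2 and Mir465c-1 carry the same 3p sequence as Mir465 (printed above as miR-465a-3p), so the value of Mir465 (115, 47.7, 101 and 83.8 against 0.27, 1.48 and 3.39) may include their reads, and how reads that match several copies were placed is not given in the sources used here. The 4 copies without reads allow at most 3 reads each per library.

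**Figure D2:**
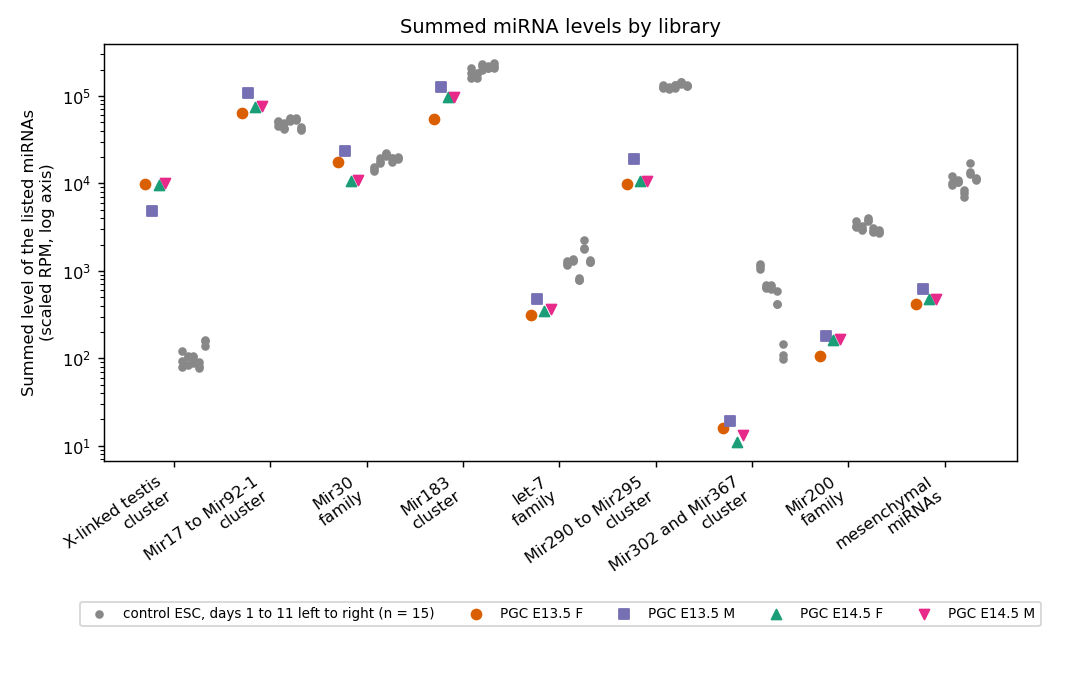
Summed level (scaled RPM, logarithmic axis) of 9 groups of miRNAs in each library, with the 4 PGC libraries as coloured symbols and the 15 control ESC libraries as grey points ordered by day within each group. The X-linked testis cluster lay at 4875 to 10072 in PGCs and 77.1 to 164 in ESCs, while the Mir290 to Mir295, Mir302 and Mir367, Mir200 and mesenchymal groups lay below every ESC library.

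Other miRNAs with large positive differences came from scattered loci. AC165361.1, annotated as a miRNA on chr17:17967307-17967423, had 504, 2831, 1754 and 1788 scaled RPM against 71.5, 117 and 187 in ESCs (3.57 ± 0.26, adjusted p = 2.57e-10 in limma). It lies on the minus strand between Mir99b and Mir125a, which are on the plus strand, and overlaps neither. Mir877, a hairpin inside the gene Abcf1 that is made by splicing, had 651, 611, 299 and 302 against 25, 44.6 and 56.1 (3.43 ± 0.19), so its E13.5 libraries were well above those of E14.5. Mir30c-2 had 213, 158, 107 and 107 against 6.11, 20.3 and 30.5 (2.79 ± 0.18). Its 5p sequence is identical in Mir30c-1, which had 89.6, 106, 77.5 and 90.4 against 36.4, 54.9 and 72.9 (0.75 ± 0.12), so reads of the pair can be confused. Mir676, within the gene Eda, had 1266, 759, 903 and 918 against 140, 185 and 256 (2.30 ± 0.11). Mir181a-2 had 68.7, 85.1, 72.4 and 68.6 against 9.75, 16.0 and 29.3 (2.19 ± 0.17). All of these hairpins separated the PGC from the ESC libraries without overlap.

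Several abundant hairpins changed by less than these. Mir92-1, the last hairpin of the Mir17 to Mir92-1 cluster of growth-promoting miRNAs, had 62233, 104282, 73348 and 75702 scaled RPM against 37168, 45998 and 52281, a difference of 0.80 ± 0.11 (adjusted p = 1.45e-06 in limma), and every PGC library was above every ESC library. Mir92-2 on the X chromosome (chrX:50095015-50095105), which yields the same miR-92a-3p, had 10440, 21819, 17499 and 18012 against 9382, 23001 and 37530 (-0.31 ± 0.14, adjusted p = 0.0547), and the ranges overlapped. Scaled over miRNAs alone its difference was 0.85, and without the library labelled E13.5 M it was -0.53 and called, as it was without day 6 ESC replicate 2 (-0.34). Reads of Mir92-1 and Mir92-2 can be confused, because their shared 3p sequence does not tell the copies apart. Mir298, of the imprinted Gnas region, had 6975, 12258, 6959 and 6805 against 3683, 4838 and 6370 (0.69 ± 0.12), and its neighbour Mir296 had 383, 787, 485 and 491 against 184, 220 and 249 (1.24 ± 0.13). Both were consistent calls. Mir182, the miRNA hairpin with the highest mean in both groups in reads per hairpin, not divided by length, had 51300, 115538, 87505 and 88221 against 135962, 185719 and 217459 (-1.11 ± 0.14), below every ESC library, but its difference was 0.05 with scaling over miRNAs alone. Mir22 (-0.78 ± 0.13) and Mir148a (-0.90 ± 0.11) were likewise consistent calls lower that turned to 0.38 and 0.26 with that scaling.

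The miRNAs best known from ESCs fell in PGCs. All 7 hairpins of the Mir290 to Mir295 cluster (chromosome 7), which is active in ESCs and the early embryo, were lower with consistent calls, with a median difference of -3.18 (range -8.52 to -2.50). Their summed level was 9771, 18810, 10661 and 10673 scaled RPM in PGCs against 119155, 131040 and 143735 in ESCs. Within the cluster Mir295 had the most reads per hairpin in ESCs, with 65216, 74007 and 81474 scaled RPM against 3155, 6638, 3274 and 3285 in PGCs (-4.24 ± 0.14, adjusted p = 7.98e-16 in limma). Mir292 was at 3381, 5814, 3394 and 3340 against 22109, 24779 and 28008 (-2.68 ± 0.11), and Mir293 at 1174, 2660, 1285 and 1266 against 11511, 14009 and 16766 (-3.18 ± 0.14). Thus the library labelled E13.5 M held the highest level of the PGC libraries and was still far below the ESCs. Mir291b stood apart within the cluster. It had 2.46, 9.86, 5.86 and 8.05 scaled RPM against 1328, 2743 and 3457 (-8.52 ± 0.18), whereas its neighbour Mir291a was at 1694, 2694, 1790 and 1840 against 9785, 11145 and 12511 (-2.50 ± 0.10). The seeds of the printed 3p forms of these neighbours are not the same. The remaining members were Mir290 (-3.36 ± 0.09) and Mir294 (-2.54 ± 0.18).

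The Mir302 and Mir367 cluster within Larp7 (chromosome 3), of which miR-302b-3p and miR-302d-3p share a seed with the Mir290 group and miR-367-3p with miR-92a, was lower in all 5 hairpins with consistent calls, with a median of -4.24. In PGCs it summed to 15.8, 19.2, 11 and 13.3 scaled RPM, and in ESCs to 97.8, 645 and 1205. The ESC level moved over the culture, with day means of 1133, 664, 654, 474 and 118 from day 1 to day 11, so the size of the difference depends on the day. Mir302a had 3.89, 8.04, 1.53 and 3.79 against 28.7, 208 and 421 (-5.08 ± 0.20) and Mir302d 4.30, 6.74, 6.37 and 6.63 against 40.9, 276 and 479 (-4.89 ± 0.14). Mir302c had at most 3 reads in each PGC library and was at least 22.9-fold lower.

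The Mir200 family, which represses the mesenchymal regulators Zeb1 and Zeb2 and is typical of epithelial cells, showed the same direction on both of its loci. All 5 hairpins were lower with consistent calls (median -4.33, range -6.45 to -3.17), and the summed level was 106, 179, 164 and 166 scaled RPM in PGCs against 2690, 3081 and 3989 in ESCs. On chromosome 4, Mir200a had 3.28, 6.74, 2.04 and 1.42 against 273, 333 and 474 (-6.45 ± 0.19), Mir200b had 47.1, 98.6, 104 and 112 against 1539, 1687 and 2231 (-4.33 ± 0.15) and Mir429 had 15.4, 30.9, 28.8 and 24.6 against 423, 521 and 604 (-4.35 ± 0.13). On chromosome 6, Mir141, with the seed of Mir200a, had 32.6, 31.6, 16.8 and 18.5 against 290, 485 and 740 (-4.20 ± 0.15). Neither locus had a PGC library within the ESC range. The Mir183 cluster (Mir183, Mir96 and Mir182), of sensory and stem cells, was lower in 3 of 3 with consistent calls, with a median of -1.50.

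Single miRNAs outside these clusters fell as far. Mir708, an intronic hairpin of Odz4, had 7.99, 4.67, 6.12 and 3.79 scaled RPM against 379, 515 and 631 (-6.31 ± 0.12, adjusted p = 3.38e-19 in limma), and Mir582, in Pde4d, had 4.30, 8.82, 4.33 and 2.84 against 219, 448 and 504 (-6.12 ± 0.15). Mir34a, a target of p53, had 12.1, 18.9, 6.63 and 7.10 against 385, 422 and 532 (-5.26 ± 0.17). Its family was lower in 5 of 5 members tested, 3 of them consistent calls, with a median of -2.88, beside 188 of 279 miRNAs called lower and 128 consistently. Mir2137 in Zfp185 (-5.01 ± 0.18), Mir221 (-4.84 ± 0.22), CT009696.2 in D230004N17Rik (-4.73 ± 0.12) and Mir214 (-4.40 ± 0.23) were also below every ESC library. Values for these ran from 1.89 to 15 scaled RPM in PGCs and from 45.3 to 512 in ESCs.

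Markers of other cell types give the context of these differences. Hairpins of mesenchyme and smooth muscle (Mir143, Mir145, Mir199a-2 and Mir214) were lower in 4 of 4 tested, with a median of -4.39. Mir143 had 401, 609, 473 and 469 scaled RPM in PGCs and 6787, 10670 and 16516 in ESCs (-4.43 ± 0.10). Mir126 of endothelium was lower as well, at 52.7, 112, 197 and 196 against 993, 1261 and 1665 (-3.38 ± 0.22). The blood miRNAs tested, Mir142 (-3.21 ± 0.17) and Mir150 (-3.09 ± 0.16), were both lower. These levels in the ESC libraries were above those in PGCs in every pair of libraries, and what in the ESC cultures carries them was not tested. Among genes, none of 20 markers of gonad somatic cells (Sox9, Amh, Wt1, Foxl2, Col1a1 and others) and none of 14 of blood and endothelium reached the filter. Summed, the gonad markers had 4.71, 4.41, 4.33 and 7.10 scaled RPM in PGCs and 13.2, 19.1 and 25.7 in ESCs, and the blood and endothelial genes 6.97, 5.45, 4.08 and 6.63 against 5.81, 8.45 and 11.9. Of 13 muscle and neural miRNAs listed, 6 were in the table and none was tested. Summed, they were at 0 to 0.51 scaled RPM in every library. How reads that match several copies were placed is not given, so this does not show that they are absent.

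The paralogous clusters of the miR-17 group split by hairpin. In the Mir17 to Mir92-1 cluster Mir92-1 was higher, 4 hairpins were lower and Mir19b-1 did not pass the test (-0.19 ± 0.31, adjusted p = 0.578 in limma), though it was called higher, at 0.87, with scaling over miRNAs alone. Those lower included Mir19a, at 42.2, 185, 104 and 96.1 scaled RPM against 475, 638 and 1035 (-2.82 ± 0.22), and Mir20a, at 342, 740, 434 and 445 against 1005, 1231 and 1861 (-1.44 ± 0.13). Mir17 had 1091, 1730, 1159 and 1228 against 1383, 1509 and 2221 (-0.36 ± 0.10), with overlap, and turned to 0.16 with library totals and 0.80 with scaling over miRNAs alone, where the median of the cluster also turned from -0.81 to 0.35. Its X-linked paralogue, Mir106a to Mir363, was lower in 5 of 6 hairpins, 4 of them consistent calls, with a median of -2.34 (beside 188 of 279 miRNAs called lower and 128 consistently). There Mir20b had 163, 314, 176 and 219 against 521, 1231 and 1530 (-2.38 ± 0.12) and Mir363 had 130, 489, 279 and 284 against 851, 1992 and 3345 (-2.82 ± 0.19). Mir363 and Mir92-1 share the seed AUUGCAC and moved in opposite directions. Mir92-1 shares its miR-92a-3p with Mir92-2, and Mir19b-1 its miR-19b-3p with Mir19b-2. Reads of either pair can be confused, so the values of these hairpins may not be their own. Of the Mir106b to Mir25 hairpins inside Mcm7, Mir93 (-0.89 ± 0.11, but 0.28 with scaling over miRNAs alone) and Mir106b (-0.52 ± 0.12) were called lower while Mir25 had 2768, 8626, 8592 and 8895 against 7001, 9256 and 10398 (-0.43 ± 0.20, adjusted p = 0.0593). Leaving out the library labelled E13.5 M, E14.5 F or E14.5 M gave a call for Mir25, at -0.64, -0.56 and -0.56. With scaling over miRNAs alone Mir106b and Mir25 turned as well, to 0.64 and 0.74, and the median of the 3 hairpins from -0.52 to 0.64.

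The let-7 family marks differentiated cells and is held back by LIN28 in pluripotent cells. Its 9 features in the table took 0.0398 to 0.0616% of reads in the PGC libraries and 0.067 to 0.199% in the ESC libraries. Of 12 listed members 9 were in the table and 6 were tested. Of these 6, 5 were called lower and 3 were consistent calls (beside 35 and 18.3% of all features), with a median of -1.51. As 188 of all 279 miRNAs tested were called lower, 128 of them consistently, these small counts do not set the family apart from other miRNAs. Mirlet7i had 88.4, 153, 113 and 103 scaled RPM against 488, 857 and 1542 (-2.88 ± 0.11, adjusted p = 9.29e-15 in limma). Mirlet7g was at 65.8, 143, 97.1 and 106 against 112, 159 and 254 (-0.64 ± 0.14), with overlap, and turned to 0.51 with scaling over miRNAs alone. With that scaling Mirlet7d (-0.30) and Mirlet7f-2 (-0.16, not called) turned as well, to 0.85 and 0.97, and each of these was then called higher. The hairpins of the Mir23, Mir27 and Mir24 clusters were lower in 5 of 5 with consistent calls (median -1.97), and Mir29 and Mir148 hairpins in 5 of 5 with 4 consistent calls (median -1.80). Among the latter, Mir148a and Mir152 turned to 0.26 and 0.22 with scaling over miRNAs alone. In the Mir15 and Mir16 family with the Mir322 to Mir503 cluster, 6 of 8 were lower and Mir351 (1.21 ± 0.16) and Mir322 (0.43 ± 0.16) were called higher with overlap. Among those lower, Mir16-2 and Mir542 turned to 0.25 and 0.35 with scaling over miRNAs alone and were then called higher. The call for Mir322 was lost without the library labelled E13.5 F (0.32) or E13.5 M (0.12).

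Members of some families diverged. Of the Hox cluster miRNAs, Mir10b (beside the Hoxd genes, chr2:74564127-74564194) had 8401, 4194, 3024 and 2958 scaled RPM against 862, 1284 and 2161, a difference of 1.63 ± 0.20. Mir10a (beside the Hoxb genes, chr11:96178479-96178588) had 813, 396, 279 and 259 against 3412, 5552 and 9866, a difference of -3.84 ± 0.20 (adjusted p = 1.19e-12 in limma). Both separated the groups without overlap, in opposite directions, and both had their highest PGC level in the library labelled E13.5 F. In the Mir30 family, Mir30d (0.79 ± 0.11), Mir30b (1.00 ± 0.10), Mir30c-1 and Mir30c-2 were higher with consistent calls, while Mir30a had 6291, 6445, 2150 and 2192 against 3744, 6364 and 7685 (-0.67 ± 0.21) and Mir30e had 3470, 7003, 2871 and 2945 against 6862, 8083 and 11075 (-1.14 ± 0.16). Mir30a and Mir30e overlapped the ESC range and came to 0.50 and 0.03 with scaling over miRNAs alone, and the call for Mir30a was lost without either E14.5 library (-0.41 and -0.40). Of the Mir181 hairpins, Mir181a-2 and Mir181d (0.45 ± 0.19, with overlap) were called higher, the latter a call lost without the library labelled E13.5 M (0.09), E14.5 F (0.42) or E14.5 M (0.40) and without any 1 of 5 ESC libraries (0.43 to 0.46), and Mir181c was lower, at 868, 2386, 1238 and 1244 against 4329, 5707 and 8888 (-2.13 ± 0.15). In the Mir99, Mir100 and Mir125 families no member of 4 was called. Mir125a had 514, 4036, 4038 and 4211 against 904, 1485 and 2143 (0.77 ± 0.35, adjusted p = 0.0531) and Mir99b 509, 3828, 3817 and 3900 against 1190, 1894 and 3714 (0.25 ± 0.34, adjusted p = 0.507). For both, the library labelled E13.5 F was below all ESC libraries and the other PGC libraries were above all of them. Without it, Mir125a and Mir99b were called higher at 1.51 and 0.98.

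**Figure D3:**
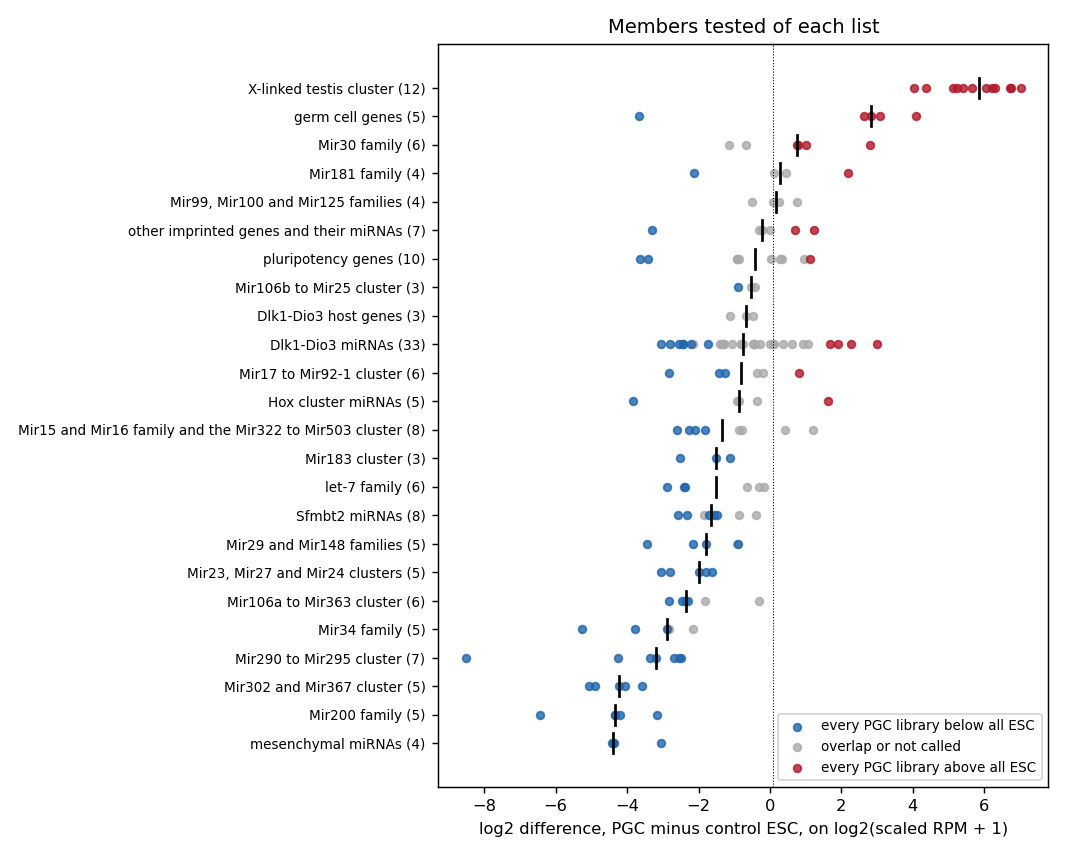
Log2 difference between PGCs and control ESCs, on the scale of log2(scaled RPM + 1), for each tested member of the lists with at least 3 such members, with the number tested in parentheses, a bar at the list median and a dotted line at the median of all features (0.08). The X-linked testis cluster (median 5.85) lies to the right, with the germ cell genes that passed next, and the mesenchymal, Mir200, and Mir302 and Mir367 lists (medians -4.39, -4.33 and -4.24) lie to the left.

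Imprinted loci, whose methylation marks PGCs erase, showed no common direction. The miRNA hairpins of the Dlk1-Dio3 region (chromosome 12), which are made from the maternal chromosome, numbered 57 in the table and 33 tested. Among these, 7 were called higher and 19 lower (beside 38.6 and 35% of all features), with 4 and 7 consistent calls (beside 20.8 and 18.3% of all features) and a median of -0.75. Over all 279 miRNAs tested, 56 were called higher and 188 lower. The consistent calls are thus near or below the share of all features. With scaling over miRNAs alone that median turned to 0.37. Their summed level was 4301, 5041, 3294 and 3305 scaled RPM, against 4227, 7910 and 14827 in ESCs, where the day means were 11348, 8218, 4761, 12750 and 6412. As shares of all reads this came to 0.376 to 0.745% in PGCs and 0.375 to 1.31% in control ESCs, and the libraries of day 11 after Dnmt1 deletion had 8.30 to 9.62%. The consistent calls that were higher were Mir1247, which overlaps Dio3os and had 76.3, 133, 90.7 and 110 scaled RPM against 7.91, 10.9 and 18.7 (3.01 ± 0.18), Mir543 (2.28 ± 0.32), Mir370 (1.92 ± 0.24) and Mir485 (1.68 ± 0.22). Among those lower were Mir136, at 46.7, 61.5, 24 and 28.9 against 214, 334 and 528 (-3.05 ± 0.17), Mir379 (-2.81 ± 0.22) and Mir411 (-2.44 ± 0.12). Mir127, the hairpin of the region with the most reads, had 1502, 1724, 1330 and 1314 against 1684, 3253 and 6719 (-1.31 ± 0.10) and overlapped the ESC range. The reads over Rtl1 (-1.12 ± 0.11), Rian (-0.66 ± 0.12) and Mirg (-0.48 ± 0.10), which hold hairpins of the region, were called lower without a consistent call, and Mirg came to 0.04 with library totals. Of other imprinted loci, Peg10 was lower, at 0.82, 0.26, 2.80 and 2.84 against 14.6, 22.8 and 35.4 (-3.31 ± 0.22). Mest, which shares its reads with Mir335, had 320, 1470, 1428 and 1446 against 663, 1330 and 1589 (-0.23 ± 0.25, adjusted p = 0.411), and Mir335 turned to 0.93 with scaling over miRNAs alone. Without the library labelled E13.5 F its difference was 0.31 and called. The 8 tested hairpins inside Sfmbt2 were all called lower (5 consistent, median -1.64), of which Mir669c and Mir467d turned to 0.75 and 0.29 with scaling over miRNAs alone. Consistent calls lower made up 128 of all 279 miRNAs tested.

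Fragments of messenger RNAs of germ cell genes were rare. Of 26 such genes 25 were in the table and 5 passed the filter. Dazl, an RNA-binding protein that germ cells need to enter their sexual programme, had 68.9, 29.3, 20.1 and 18 scaled RPM against 0, 0.62 and 3.37 (4.08 ± 0.32, adjusted p = 8.44e-10 in limma). Ddx4, the germ cell helicase, had 20.1, 13, 10.7 and 14.7 against 0, 0.98 and 1.98 (3.08 ± 0.25). Piwil2, a PIWI protein of the piRNA pathway, had 15.2, 16.1, 16.6 and 15.1 against 0.71, 1.23 and 3.19 (2.82 ± 0.22), and Dppa3 10.2, 9.08, 10.4 and 13.3 against 0, 0.84 and 2.50 (2.63 ± 0.27). All of these had reads in each PGC library. They reached the filter only through the PGC libraries, so their calls follow in part from the filter, and 20 of the 25 genes in the table did not reach it. Dnmt3l, the cofactor of new DNA methylation that male germ cells switch on later, had at most 3 reads in each PGC library and 12.1, 17.5 and 25.5 scaled RPM in ESCs, at least 20.1-fold lower in PGCs.

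Genes listed for pluripotency gave no single direction, with 5 positive and 5 negative differences among 10 tested. Of these, 2 were called higher and 5 lower, beside 38.6 and 35% of all features, so this small count does not set them apart. The 2 called higher were the DNA methyltransferase genes Dnmt1 and Dnmt3a, and all other calls in the list were lower. Tdgf1 had no read in any PGC library and 5.48, 12.1 and 24.4 scaled RPM in ESCs, at least 13.8-fold lower, and Fgf4 had 1.23, 0, 0 and 0 against 7.27, 12.1 and 20.8 (-3.42 ± 0.21). Dnmt1, which copies DNA methylation at replication, had 102, 114, 81.8 and 87.1 against 27.3, 43.9 and 65 (1.12 ± 0.12, adjusted p = 7.5e-08 in limma). Dnmt3a (0.95 ± 0.23) was called higher with overlap. Sox2 had 10.7, 17.1, 42.0 and 36.0 against 10.2, 21.3 and 28.7 (0.29 ± 0.24, adjusted p = 0.277), and was called higher, at 0.64, without the library labelled E13.5 F. Pou5f1, the gene whose promoter drives the sorting transgene, did not pass the filter, with 6.15, 4.93, 11 and 5.21 against 3.83 to 11.

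Among features that hold no miRNA, the largest positive differences were in protein-coding genes. Fads6 had 338, 422, 116 and 116 scaled RPM against 0, 0.99 and 2.74 (6.68 ± 0.32, adjusted p = 4.93e-13 in limma). Acsl6, an acyl-CoA synthetase gene, had 30036, 23897, 7213 and 7805 against 588, 787 and 1095 (4.16 ± 0.27), and its reads made up 5.21, 3.09, 0.824 and 0.951% of the PGC libraries. Fkbp6, a testis chaperone of the piRNA pathway and of meiosis, had 21.1, 18.2, 76.2 and 86.6 and at most 3 reads in any ESC library, at least 40.0-fold higher. Mfsd4 (4.67 ± 0.61) and Elk4 (4.41 ± 0.56) overlap and share reads, and Zfp428 had 26.9, 37.1, 112 and 99.9 against 0, 2.24 and 5.10 (4.26 ± 0.36). The stages differed in all of these, with Fads6 and Acsl6 higher at E13.5 and the others at E14.5, and no PGC library overlapped the ESC range. Apart from Acsl6, these genes reached the filter only through the PGC libraries. Their calls and lack of overlap thus follow in part from the filter. Downward, SNORD93, a box C/D small nucleolar RNA (snoRNA), had 0, 1.04, 0.51 and 0 scaled RPM against 219, 300 and 409 (difference -7.785, SE 0.15, adjusted p = 3.38e-19). SCARNA16, an RNA of Cajal bodies, had 1.43, 1.56, 6.12 and 6.15 against 135, 184 and 421 (-5.59 ± 0.22), and 2810008D09Rik, which contains it, carried the same reads. Slc22a29 had 19.9, 11.7, 12 and 14.2 against 316, 543 and 730 (-5.10 ± 0.12), Bai2 (-4.80 ± 0.22) and BC107364, which overlaps a U1 copy, (-4.74 ± 0.18) followed.

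Small nucleolar RNAs, which guide the modification of ribosomal and spliceosomal RNA, were lower by count of features. Of 129 box C/D features tested, 20 were called higher and 77 lower (3 and 39 consistent, median -0.41), and of 56 H/ACA features 8 higher and 29 lower (4 and 11 consistent, median -0.50). Of all features tested, 38.6% were called higher and 35% lower, with 20.8 and 18.3% consistent. The 11 consistent H/ACA calls lower are near that share. With library totals the C/D median turned to 0.09 and the H/ACA median came to about 0, so the direction depends on the scaling. SNORD44, in the host gene Gas5, had 24260, 34954, 165939 and 128124 scaled RPM against 19311, 24340 and 28684 (1.45 ± 0.32), and its E14.5 libraries lay far above the others.

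The makeup of the libraries differed accordingly. Class shares are percentages of a library's reads that fall on features of the class, and as overlapping features each count a read, shares add to more than 100%. MiRNA features took 42.7, 55.7, 36.7 and 40.1% of PGC reads and 53.7, 56.7 and 59.1% of ESC reads, a difference in means of -12.9 percentage points (two-sided exact permutation test over 3876 combinations, adjusted p = 0.00258 over 16 classes). The library labelled E13.5 M was within the ESC range. The snoRNA share was 22.7, 20.8, 33.9 and 30.6% against 16.1, 19.4 and 20.7%, and all PGC libraries were above all ESC libraries (exact permutation test, adjusted p = 0.000688, the smallest unadjusted p being 0.000258). A single feature carried this. SNORD44, in Gas5, took 4.21, 4.53, 19 and 15.6% of PGC reads and 1.78, 2.23 and 2.67% of ESC reads. Without it, an alternative chosen after seeing the data, the snoRNA share was 18.5, 16.2, 15 and 15% against 14.1, 17.1 and 18.8%, with overlap and a difference of -0.71 percentage points (exact permutation test, adjusted p = 0.386). The total there still held the reads of SNORD44, which lowers the remaining share most in the E14.5 libraries. The sign of that difference thus carries no weight, and shares of the remaining reads were not taken. Shares of lincRNA (10.1, 9.83, 23.8 and 20.5% against 7.83, 8.88 and 9.22%) and of processed_transcript (12.9, 16.3, 10.6 and 11.7% against 7.01, 7.89 and 8.31%) were above as well, but without the 5 most abundant features, which include Gas5 and the miR-17 host Mir17hg, their differences turned from 7.33 and 5.14 to -1.34 and -1.24 percentage points. The latter shares are percentages of the summed counts of the features kept, a different total from that of 7.33 and 5.14. Protein_coding features took 47.0, 37.5, 34.1 and 34.6% against 30.3, 33.5 and 34.1% (5.15 points, exact permutation test, adjusted p = 0.00118), and 2.24 points without the library labelled E13.5 F. The lincRNA difference was 4.75 points without the library labelled E14.5 F. Mitochondrial tRNA features were below every ESC library, at 0.159, 0.113, 0.162 and 0.172% against 0.247, 0.336 and 0.622%.

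**Figure D4:**
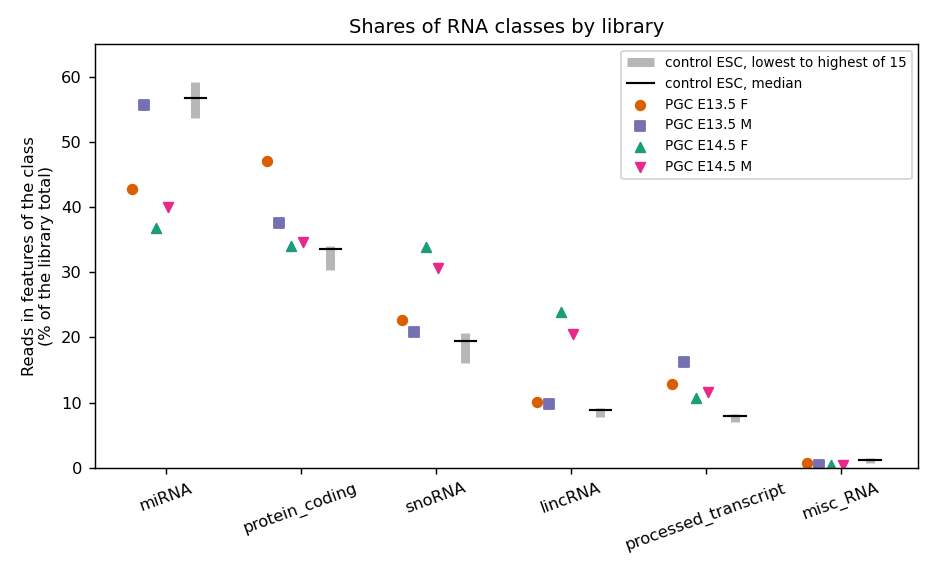
Share of each library's reads in 6 classes of features (percent of the library total, linear axis from 0), with the 4 PGC libraries as symbols and the 15 control ESC libraries as a grey bar from lowest to highest with a line at the median. The snoRNA and lincRNA shares of the E14.5 libraries, both of which hold the reads of SNORD44, (30.6 to 33.9% and 20.5 to 23.8%) exceed those of E13.5, and the misc_RNA share is below every ESC library.

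Among the PGC libraries that labelled E13.5 F was the most distant. Over miRNA features its chi-square per degree of freedom was 449.6 against E13.5 M, its stage partner, while E13.5 M was at 124 and 96.7 against the E14.5 libraries. Differences by stage are described without a test, since each stage has 2 libraries, those of E14.5 are nearly alike, and library preparation cannot be told apart from stage. In 101 of 2570 features both E14.5 libraries were above both E13.5 libraries by more than 1 on the log2 scale between the nearest libraries (mean of at least 50 RPM in the higher pair), and in 20 the reverse held. Only 1 of the 101 but 8 of the 20 were miRNA features. By sex label no feature was separated in this way in either direction, with the label of the E14.5 F library in doubt. As the E14.5 libraries are nearly alike, this outcome was almost fixed in advance, and nothing on sex follows from it. Higher at E14.5 were a U4 small nuclear RNA (10.5 and 7.78 against 233 and 169 scaled RPM), n-R5s185, a 5S ribosomal RNA copy within Tmem38b (28.9 and 29.6 against 438 and 453), and Arrb1 (7.38 and 8.56 against 85.9 and 83.3). Higher at E13.5 were Itga9 (10395 and 9649 against 3570 and 3531), Mir30a, and Mir34c (341 and 153 against 56.8 and 41.7). The X-linked testis cluster was at similar sums in both stages except for the lower library labelled E13.5 M.

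**Figure D5:**
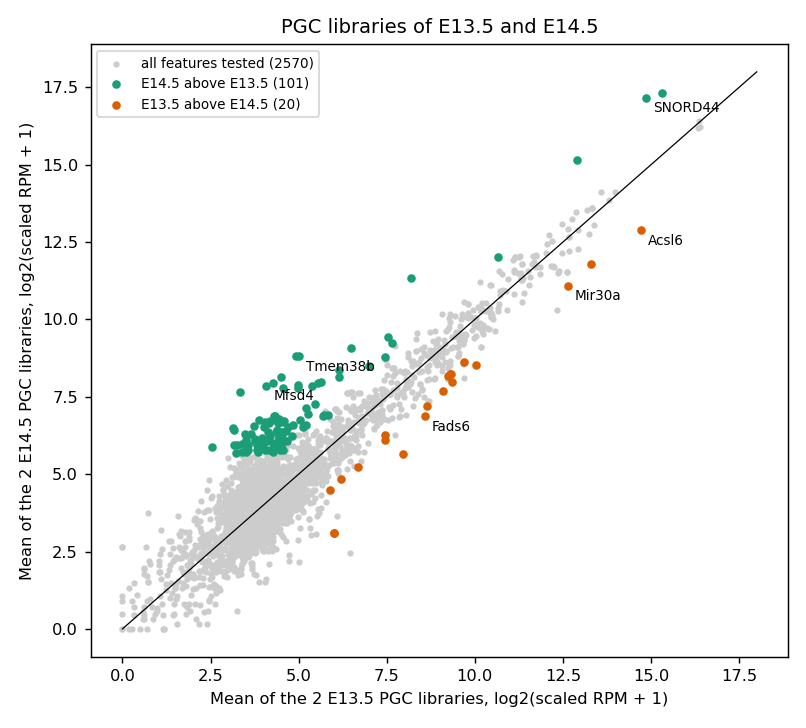
Mean level of each of the 2570 features tested in the 2 PGC libraries of E13.5 (horizontal axis) and of E14.5 (vertical axis), as log2(scaled RPM + 1), with the line of equal levels. The 101 features with both E14.5 libraries above both E13.5 libraries by more than 1 (green) include Tmem38b and SNORD44, and the 20 with the reverse pattern (orange) include Acsl6, Fads6 and Mir30a.

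The R1-suffixed libraries, which hold 3 PGC libraries, were not used above. In those labelled E13.5 F and E13.5 M, 66.1 and 91.5% of the reads were on Acsl6, against 2.86% in that labelled E14.5 M, and they held 114631 and 60317 reads. The R1-suffixed library labelled E14.5 M was closer to the E13.5 M library (chi-square 4.02 per degree of freedom over miRNA features) than to E14.5 M (74.3). With the 3 of them against the R1-suffixed controls, 68 features were called higher and 1464 lower.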

How the data were processed

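The authors trimmed the reads with Trim Galore 0.3.5, aligned them with Bowtie2 2.2.9 and kept those of 20 to 24 nt, per the labels and the study's methods. The deposited table gives RPKM (reads per kilobase of feature per 1000000 reads) made by the authors in SeqMonk for 32101 features with NCBIM37 coordinates, of which 32076 matched GENCODE vM1 by position and name. RPKM was multiplied by feature length to give RPM. Low values were whole multiples of 1 read's worth in 100% of cases (within 5% of a step), which gave reads and depth per library. Strand use and the placing of reads that fit several copies are not given in the sources used here. Reads over a hairpin inside a gene are counted for both.

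TMM factors (trims of 30% and 5%) scaled the RPM. Features with at least 10 RPM in 4 of 19 libraries were tested on log2(scaled RPM + 1), a scale that understates changes of low features, with limma 3.58.1 (R 4.3.3, empirical Bayes with trend), as PGC minus the mean of 5 ESC day means. Benjamini-Hochberg adjustment covered all 2570 features. Folds against a group with at most 3 reads in every library are bounds against a floor of 3 reads per library, for counting error only. The procedure was tested on simulated data with the group sizes and depths of this comparison: of 1922 features tested, 68.9% of 1.5-fold, 91.1% of 2-fold and 100% of 4-fold changes were recovered, and 0.339% of unchanged features were called. All simulated libraries varied only like ESC replicates of a day, and 1772 features were unchanged. Most real PGC pairs spread more. The SD of log2 differences was 1.17 between E13.5 F and E14.5 M, and at most 0.60 between ESC replicates of a day. These rates therefore do not carry over to the real comparison.

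The members, lists and tests were chosen with earlier results of these data known. The features named were the 12 miRNAs with the largest consistent difference in each direction (at least 100 RPM in the higher group), the 6 largest of features without a miRNA (50 RPM), the 8 most abundant miRNAs of each group, up to 4 abundant members of each list and up to 5 by stage or sex. Further list members with values were chosen after those were seen.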

Additional observations from a re-analysis of the deposited data

Results flagged for a closer look

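In 16 of 106 groups of 4 PGC values tested for an outlying library by Dixon's criterion, 1 library lay far from the other 3, where chance flags about 1 in 20. All were E13.5 libraries, which the closeness of the E14.5 pair makes more likely, and no cause was tested. The library labelled E13.5 F was the lowest for Mir302d (4.30 scaled RPM), Mir183 (3807), Mir25 (2768), Mir148a (4824), Mir15b (84.3), Mir27b (994), Mir125a (514), Mir99b (509) and Mest (320.4). The library labelled E13.5 M was the lowest for Mir741 (93.1) and the highest for Mir298 (12258), Mir295 (6638), Mir292 (5814), Mir293 (2660), Mir411 (313) and Mir30e (7003).

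In 6 features both E13.5 libraries lay below all 15 ESC libraries and both E14.5 libraries above them, and the difference between stages was not tested. The E14.5 means were 331 scaled RPM for Jarid2 (ESC range 101 to 160), 84.6 for Arrb1 (19.8 to 34.1), 281 for the small nuclear RNA 7SK (48.9 to 117), 62.2 for Rps2 (34.5 to 48.1), 81.0 for Rpl23 (24.4 to 62.3) and 77.5 for Snora21 (14.7 to 54.5).

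In the R1-suffixed PGC libraries, which no comparison above rests on, Acsl6 held 66.1% of reads in that labelled E13.5 F, 91.5% in E13.5 M and 2.86% in E14.5 M, against 0.0503 to 0.0993% in R1-suffixed control ESCs.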

How the results depend on the processing

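No paired analysis was possible because the PGC libraries carry no replicate number shared with the ESC libraries. Counts of calls stayed within 1.5 times the main counts with median-ratio factors, TMM without miRNAs, voom, array weights, a pseudocount of 5, ESC day means, no day term and the averaged E14.5 pair. Within that bound, calls fell from 1891 to 1496 (727 higher, 769 lower) with array weights per group. With ESC day means they fell to 1515 (800 higher, 715 lower). Consistent calls numbered 987 and 1004 in these, against 1005. Of 100 named differences, 11 lost their call with ESC day means as units and 7 with no day term, with the direction kept. Leaving out 1 library gave 1854 to 2118 calls and 1004 to 1311 consistent calls, 165 to 198 of them miRNAs, and moved Mest from -0.50 to 0.31. With library totals, 845 and 299 features were consistent calls higher and lower, and Mirg (0.043), Mir434 (0.0497), Mir17 (0.16) and Mir669c (0.11) turned sign. Without a filter 5582 features were called (2748 higher, 2834 lower), 1696 consistently and 980 of these lower, and Mir26b was at -0.13. With miRNAs alone 239 were called (113 higher, 126 lower), 159 consistently (79 higher, 80 lower), and Mir182 (0.0518), Mir92-2 (0.85), Mir22 (0.38), Mir25 (0.74), Mir148a (0.26), Mir434 (0.69), Mir93 (0.28), Mir17 (0.80), Mir30a (0.50), Mir30e (0.027), Mir467d (0.29), Mir669c (0.75) and Mirlet7g (0.51) turned sign, which follows from centring on miRNAs. The R1-suffixed libraries gave 68 calls higher and 1464 lower, 423 consistent and 40 of them higher (4 miRNAs), and turned Mir30c-2 (-0.19), Bai2 (0.68), Mir92-1 (-0.27), Mir298 (-3.76), Mir322 (-2.83), Mir181d (-3.24), Mir26b (-4.50), Mir30d (-4.64), Mir125a (-3.51), Mir99b (-3.64), Dnmt1 (-3.11), SNORD44 (-0.77) and Arrb1 (-3.19). With only the deepest of their PGC libraries, an alternative chosen after seeing the data, 622 were called (174 higher, 448 lower), 551 consistently and 163 of these higher, and Mirg (0.029), Mir434 (0.21), Mir17 (0.14), Mir30a (0.33), Mir669c (0.075), Mirlet7g (0.21) and Mest (0.33) turned. That fit assumes that the lone library varies like the others. Class differences turned for processed_transcript over features that overlap no miRNA (-0.35 points), for lincRNA (-1.34) and processed_transcript (-1.24) without the 5 most abundant features, for snoRNA without SNORD44 (-0.71), chosen after seeing the data, and for lincRNA (-3.89), processed_transcript (-0.912) and snoRNA (-8.44) in the R1-suffixed libraries. Reads of SNORD44 stayed in the total when it was removed. Over features that overlap no miRNA, and without the 5 most abundant features, the total was the summed counts of the features kept. At a gap of 2 between stages 34 features were higher at E14.5 and 0 at E13.5. Where no cause is given, the cause was not tested. Depth limits features near 10 RPM.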
